A study of Mus musculus with 25 samples.

Results

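Actn1 and 8 other genes of actin-crosslinking, actin-bundling and membrane-skeleton proteins were followed in ribosome-bound RNA. It came from a pulldown aimed at mouse podocytes with and without a point mutation in alpha-actinin-4. The 9 genes are Actn1, Flna, Fscn1, Lcp1, Pls3, Synpo, Dbn1, Palld and Sptan1, of 17097 genes that the array's annotation names. All 9 were measured, by 20 of the 45141 probe sets. Where several probe sets carried only a gene's symbol, the brightest on average over the 25 arrays stood for it. All 9 passed the filter on dim genes, which kept 11968 genes for testing. The question put to these genes was whether paralogs and partners of alpha-actinin-4 differ in level between mutant and wild-type podocytes.

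Col1a1-eGFPL10a mice, strain C57/129sv, carry a green fluorescent ribosomal protein L10a behind a collagen promoter and enhancer, and were bred with the knock-in line Actn4tm1.1Plk. Tagged ribosomes were pulled down from kidney by translating ribosome affinity purification (TRAP). The method aims at RNA bound to ribosomes of cells in which this promoter is active. Wild-type (WT) animals carrying the transgene gave 4 arrays at 2 weeks, 5 at 5 weeks and 4 at 44 weeks, and knock-in (KI) animals carrying it gave 4 arrays at each age. The cross used a heterozygous line, but the labels do not say whether the KI animals themselves had 1 or more mutant alleles, and they give the sex as unknown. Nor do they state that the arrays of a group are different animals, and p-values therefore cover the spread between these samples alone. Actn4 itself was not analysed here, and the genotype labels were therefore not checked on the targeted gene.

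Alpha-actinins, filamins, fascins and plastins (fimbrins) hold actin filaments together in networks or parallel bundles, and spectrin lines the membrane with an actin-bound lattice. The foot processes of podocytes are filled with bundled actin, and mutations of alpha-actinin-4 that raise its affinity for actin cause an inherited glomerular disease. Alpha-actinin-1 is the other non-muscle member of the family.

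The 13 podocyte markers measured had mean log2 values between 10.9 and 11.7 on every array. Markers of other kidney cells were also present, and several rose with the genotype. The mean of 23 tubule markers was 8.49 ± 0.29 (SD, n = 4) in WT and 9.09 ± 0.41 (SD, n = 4) in KI at 2 weeks, 8.72 ± 0.39 (SD, n = 5) and 9.43 ± 0.10 (SD, n = 4) at 5 weeks, and 9.29 ± 0.48 (SD, n = 4) and 9.56 ± 0.08 (SD, n = 4) at 44 weeks. At 5 weeks 6 of 23 tubule markers, 4 of 11 leukocyte markers, 4 of 11 smooth muscle and mesangial markers and 6 of 13 endothelial markers were higher in KI by the test used for all genes, and none was lower. Of 13 podocyte markers 3 were higher and 3 lower. Over all genes 14.3% were higher and 7.75% lower. None of these markers passed at 2 or 44 weeks. In bulk RNA of this kind, fewer cells of a type and less RNA per cell cannot be told apart.

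At 5 weeks 4 of the 9 genes were higher in KI and none was lower: Dbn1, Lcp1, Flna and Sptan1. In which cells of the pulldown these transcripts differed was not tested. Over all genes 14.3% were higher and 7.75% lower (22% in all) by the same test, limma with Benjamini-Hochberg adjustment at 0.05. Averaged over the 3 ages 5 genes rose and none fell, with Actn1 added, beside 3.99% of all genes higher and 1.33% lower (5.32% in all). At 2 weeks no gene of the 9 passed, nor did any gene on the array (0%), and at 44 weeks none of the 9 passed beside 0.0251% of all genes (limma). At an unadjusted p under 0.05 limma gave 0 of the 9 and 613 of all genes at 2 weeks, and 4 of the 9 (Actn1, Pls3, Dbn1 and Sptan1) and 762 of all genes at 44 weeks. The median difference of the 9 genes was 0.26 at 2 weeks, 0.46 at 5 weeks and 0.57 at 44 weeks on the log2 scale, beside -0.02, 0.06 and 0.01 over all genes tested.

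The starts of the 5 genes called in the average are shown, a choice made from the calls in these data. RefSeq promoters of build GRCm38.p6 were found for 8 of the 9 genes, and the 250 bases before a listed transcript start are printed for Actn1 at chr12:80260364-80260613 (minus strand), Flna at chrX:74246535-74246784 (minus strand), Dbn1 at chr13:55488077-55488326 (minus strand), Sptan1 at chr2:29965310-29965559 (plus strand) and the farther upstream of the annotated Lcp1 starts at chr14:75130873-75131122 (plus strand). The Flna window lies inside the annotated gene, which spans chrX:74223461-74249854 on the same strand, and so belongs to an internal start. Those of Actn1, Dbn1 and Lcp1 overlap the outer edge of their annotated genes, and that of Sptan1 ends where the gene begins. Capitals mark GGGCGG, the core of an Sp1 site, and GGAATG, the core of a TEAD site, on either strand.
Actn1: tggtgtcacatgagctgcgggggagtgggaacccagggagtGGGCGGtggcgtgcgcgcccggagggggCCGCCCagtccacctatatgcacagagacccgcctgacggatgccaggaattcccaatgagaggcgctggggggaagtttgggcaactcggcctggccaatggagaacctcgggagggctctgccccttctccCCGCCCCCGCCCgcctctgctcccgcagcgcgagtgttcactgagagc
Flna: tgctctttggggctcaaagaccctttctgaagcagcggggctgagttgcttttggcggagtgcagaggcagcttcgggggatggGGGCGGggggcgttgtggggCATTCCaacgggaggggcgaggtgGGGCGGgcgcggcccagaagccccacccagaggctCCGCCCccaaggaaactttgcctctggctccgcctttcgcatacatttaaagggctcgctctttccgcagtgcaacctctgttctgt
Lcp1: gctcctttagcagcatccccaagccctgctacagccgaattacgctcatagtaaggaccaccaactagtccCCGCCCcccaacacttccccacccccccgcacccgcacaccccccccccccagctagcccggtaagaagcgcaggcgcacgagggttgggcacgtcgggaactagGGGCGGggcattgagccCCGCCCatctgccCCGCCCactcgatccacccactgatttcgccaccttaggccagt
Dbn1: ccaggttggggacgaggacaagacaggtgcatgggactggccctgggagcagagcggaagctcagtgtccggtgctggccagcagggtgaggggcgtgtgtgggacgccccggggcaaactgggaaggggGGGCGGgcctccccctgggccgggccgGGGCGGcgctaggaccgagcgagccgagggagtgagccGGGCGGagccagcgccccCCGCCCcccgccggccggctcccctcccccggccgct
Sptan1: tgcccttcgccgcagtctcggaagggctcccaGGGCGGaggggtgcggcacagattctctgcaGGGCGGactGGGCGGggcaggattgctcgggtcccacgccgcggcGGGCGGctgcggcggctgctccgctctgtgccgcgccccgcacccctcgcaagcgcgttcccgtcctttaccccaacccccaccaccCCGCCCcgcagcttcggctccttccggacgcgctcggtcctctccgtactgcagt
GGGCGG occurred 4 times at Actn1, 3 times at Flna, 4 times at Lcp1, 4 times at Dbn1 and 5 times at Sptan1, and 32.7% of 32851 RefSeq promoters of this length held it at least once. These windows were rich in G and C, at 63.6% (Flna) to 77.2% (Dbn1), against a median of 52.4% over all promoters. The shares over all promoters were not matched for G and C. Whether any of these motifs has a part in the differences was not tested. GGAATG occurred 1 time in these 5 windows, at Flna, and 12.6% of all promoters held it. The other annotated Lcp1 start, at chr14:75136175-75136424, had no GGGCGG, 1 GGAATG and 41.6% G and C, so the Lcp1 values depend on the start taken. The CArG box, the site of serum response factor, was matched in none of these 5 windows, and 1.47% of all promoters held one. Among the genes not called in the average, Fscn1 had no GGGCGG, while Pls3 and Palld each had 1 at 1 of their 3 annotated starts and none at the others. GGAATG stood at all 3 Pls3 starts and at 1 Palld start.

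Actn1, the closest paralog measured, was higher in KI than in WT on average at every age, and the difference passed only in the average of ages. At 2 weeks the WT arrays read 10.30, 9.83, 10.07 and 10.10 and the KI arrays 10.50, 10.02, 10.08 and 10.94. At 5 weeks WT read 10.76, 10.30, 9.85, 9.87 and 10.17 and KI 10.62, 10.79, 10.54 and 10.62. At 44 weeks WT read 10.97, 9.79, 10.10 and 9.71 and KI 10.52, 10.90, 11.03 and 10.73. The genotypes overlapped at every age, through a single high WT array at 5 weeks (array 6) and at 44 weeks (array 15), and the KI arrays of 5 weeks lay closest together. The difference was 0.31 ± 0.24 (SE) at 2 weeks, 0.46 ± 0.23 at 5 weeks and 0.65 ± 0.24 at 44 weeks, with limma adjusted p of 0.909, 0.149 and 0.695. Averaged over ages it was 0.47 ± 0.14 (95% interval 0.19 to 0.76), a 1.39-fold higher level, with an adjusted p of 0.0462 (limma). From low to high the group means ran from WT at 2 weeks (10.07) through WT at 44 weeks (10.14), WT at 5 weeks (10.19), KI at 2 weeks (10.38) and KI at 5 weeks (10.65) to KI at 44 weeks (10.80). No neighbours in that order differed by more than the spread within groups (0.36).

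Actn1 also had dimmer probe sets, and they gave a larger difference at 5 weeks. The second probe set read 7.29, 7.20, 6.64, 6.14 and 6.85 in WT and 7.70, 8.19, 7.69 and 8.21 in KI, and the genotypes did not overlap. Its difference was 1.12 ± 0.34 and that of the third 1.18 ± 0.31, with limma adjusted p of 0.0332 and 0.0178 over the 28898 probe sets with 1 symbol. In that same fit the brightest probe set gave 0.46 with a limma adjusted p of 0.197 at 5 weeks and 0.0668 in the average. The 2 dimmer probe sets were 0.85 ± 0.20 and 0.88 ± 0.18 higher in the average, with limma adjusted p of 0.0373 and 0.0285. The mean of all Actn1 probe sets gave 0.73 there (limma adjusted p 0.0258). For the brightest probe set, the adjusted p in the average was 0.0597 (limma) with no filter on dim genes, and 6 of 25 fits that left out 1 array kept the call.

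**Figure D1:**
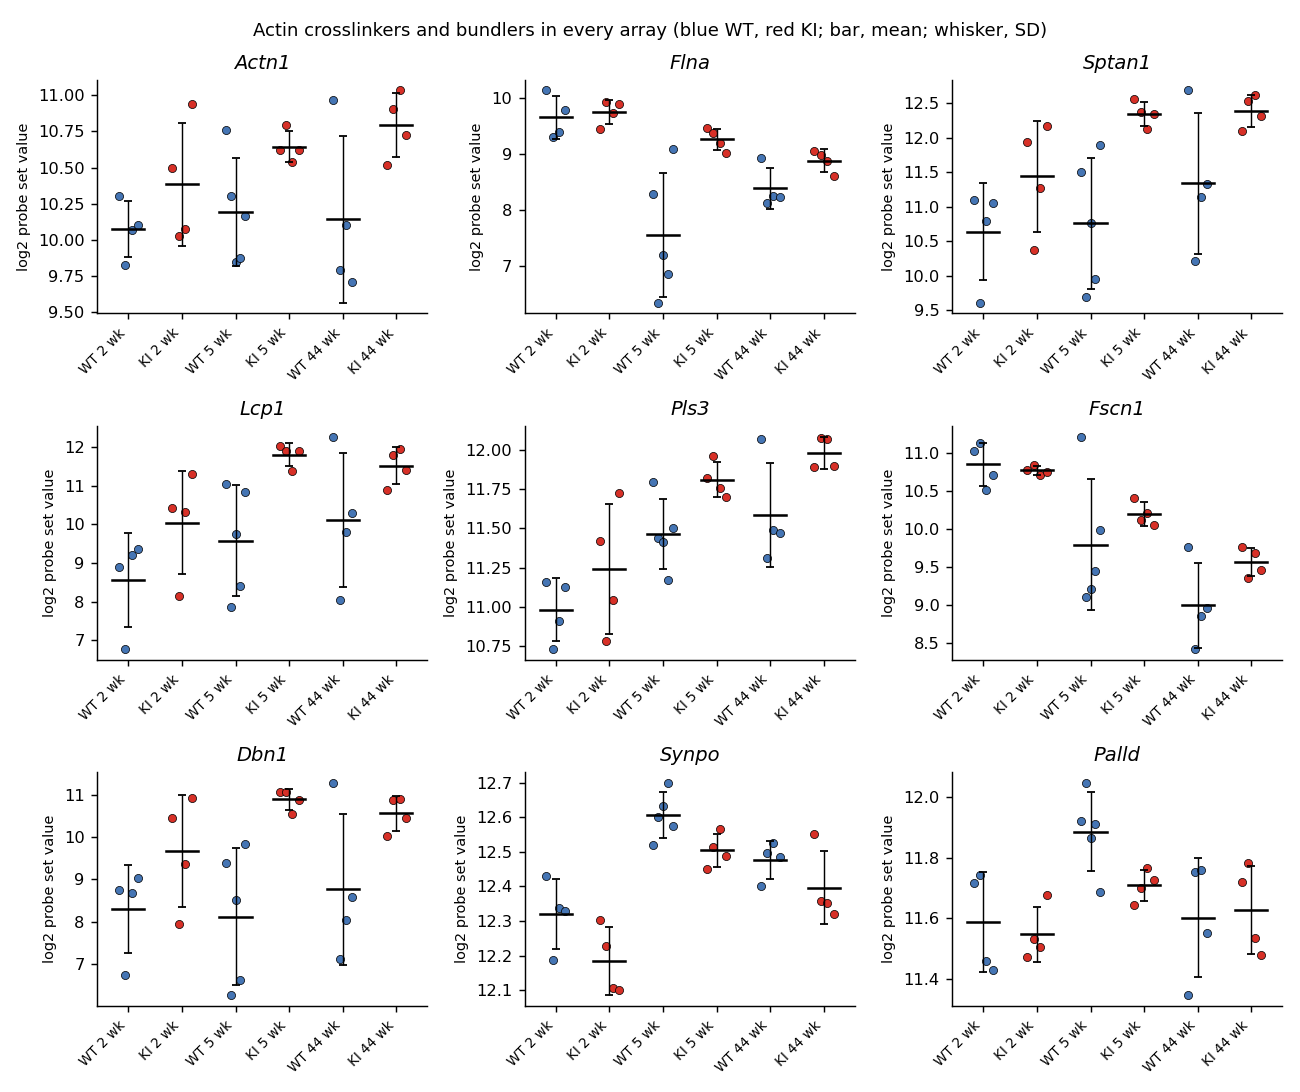
Log2 value of the brightest probe set of each of the 9 genes (vertical axis, scaled per gene) on every array of the 6 groups, WT blue and KI red. Bars are group means and whiskers SD of 4 or 5 arrays. The KI points of Dbn1, Lcp1 and Sptan1 at 5 weeks lie above all 5 WT points, whose spread is wide.

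Flna encodes filamin A, which joins actin filaments at wide angles and ties them to integrins. At 5 weeks the WT arrays read 8.29, 6.34, 7.20, 6.85 and 9.08 and the KI arrays 9.45, 9.36, 9.19 and 9.02. WT arrays 7, 8 and 9 were the low ones, and WT array 10 overlapped the lowest KI array. Flna was 1.70 ± 0.36 higher in KI, a 3.26-fold difference, with an adjusted p of 0.00408 (limma). At 2 weeks WT read 10.13, 9.30, 9.39 and 9.78 and KI 9.45, 9.93, 9.72 and 9.89, a difference of 0.10 ± 0.38 (limma adjusted p 0.981). At 44 weeks WT read 8.93, 8.12, 8.25 and 8.23 and KI 9.06, 8.98, 8.88 and 8.60, a difference of 0.50 ± 0.38 (limma adjusted p 0.913). At 44 weeks WT array 15 alone reached the KI range. The genotype difference at 5 weeks exceeded that at 2 weeks by 1.61 ± 0.52, which did not pass (limma adjusted p 0.124), and no other member's genotype difference changed between these ages or between 5 and 44 weeks by this test, beside 0.0251% and 0% of all genes. At an unadjusted p under 0.05 limma gave 1 of the 9, Flna, in either of these, beside 2242 and 2335 of the 11968 genes. Averaged over ages Flna was 0.77 ± 0.21 higher (limma adjusted p 0.0417).

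Flna had its lowest group mean in WT at 5 weeks. WT at 44 weeks was 0.83 ± 0.36 above it, which did not pass (limma adjusted p 0.107), and without WT arrays 7, 8 and 9 that difference was -0.30. The order of its group means was WT at 5 weeks (7.55), WT at 44 weeks (8.38), KI at 44 weeks (8.88), KI at 5 weeks (9.26), WT at 2 weeks (9.65) and KI at 2 weeks (9.75). Only the step from WT at 5 weeks to WT at 44 weeks was wider than the spread within groups (0.57).

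Dbn1, drebrin, binds along actin filaments and stiffens them. Its difference was the largest of the 9 at 5 and 44 weeks and in the average. At 5 weeks the WT arrays read 9.38, 6.26, 8.51, 6.62 and 9.85 and the KI arrays 11.08, 11.06, 10.55 and 10.87, with no overlap. The difference was 2.77 ± 0.78, 6.82-fold, with an adjusted p of 0.0166 (limma). At 2 weeks WT read 8.75, 6.74, 8.69 and 9.03 and KI 10.45, 7.95, 9.37 and 10.93. At 44 weeks WT read 11.29, 7.12, 8.05 and 8.59 and KI 10.02, 10.89, 10.90 and 10.45. A low KI array at 2 weeks (array 20) and a high WT array at 44 weeks (array 15) crossed into the other genotype. The differences at these ages, 1.37 ± 0.82 and 1.80 ± 0.82, did not pass (limma adjusted p 0.893 and 0.756), and the average over ages was 1.98 ± 0.46 (limma adjusted p 0.0273). The second Dbn1 probe set was 1.81 ± 0.53 higher at 5 weeks, with a limma adjusted p of 0.0299.

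Lcp1 encodes L-plastin, the plastin known from leukocytes, which packs actin filaments into tight bundles. At 5 weeks the WT arrays read 11.04, 7.85, 9.76, 8.39 and 10.84 and the KI arrays 12.03, 11.90, 11.37 and 11.89, without overlap. Lcp1 was 2.22 ± 0.76 higher, 4.65-fold, with an adjusted p of 0.0397 (limma), the closest to the threshold of the 4 calls. At 2 weeks WT read 8.90, 6.78, 9.21 and 9.37 and KI 10.43, 8.15, 10.31 and 11.29, a difference of 1.48 ± 0.80 (limma adjusted p 0.893). At 44 weeks WT read 12.26, 8.05, 9.80 and 10.28 and KI 10.89, 11.80, 11.95 and 11.41, a difference of 1.41 ± 0.80 (limma adjusted p 0.838). The arrays that crossed were again KI array 20 and WT array 15. The average over ages was 1.70 ± 0.45 (limma adjusted p 0.0346). Over all probe sets with 1 symbol the second Lcp1 probe set passed at 5 weeks, at 2.63 ± 0.77 (limma adjusted p 0.0306), and the brighter had an adjusted p of 0.0584 there.

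The mean of the 11 leukocyte markers measured, which are background for Lcp1, was 5.93 ± 0.38 (SD, n = 5) in WT and 6.51 ± 0.07 (SD, n = 4) in KI at 5 weeks. The genotypes did not overlap in that mean at 5 weeks. With it as a covariate the Lcp1 difference at 5 weeks was 0.59 (limma adjusted p 0.67). Over the 25 arrays the genes most like Lcp1 were Myo6 (Pearson r 0.98), Cgnl1 (0.97) and Sptbn1 (0.97), a myosin, a cell junction protein and a spectrin. Which cells gave the Lcp1 signal was not tested.

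Sptan1 encodes alpha-II spectrin, the non-erythroid alpha chain of the membrane skeleton. At 5 weeks the WT arrays read 11.50, 9.70, 10.77, 9.95 and 11.89 and the KI arrays 12.56, 12.37, 12.14 and 12.35, without overlap. The difference was 1.59 ± 0.46, 3.01-fold, with an adjusted p of 0.02 (limma), and the second probe set gave 1.87 ± 0.57 (limma adjusted p 0.0369). At 2 weeks WT read 11.10, 9.61, 10.80 and 11.06 and KI 11.94, 10.38, 11.28 and 12.17. At 44 weeks WT read 12.69, 10.22, 11.14 and 11.33 and KI 12.10, 12.54, 12.62 and 12.32. These differences were 0.80 ± 0.49 and 1.05 ± 0.49 (limma adjusted p 0.893 and 0.762), and the average was 1.15 ± 0.28 (limma adjusted p 0.0284). Dbn1, Lcp1 and Sptan1 were the only 3 of the 9 genes whose WT and KI arrays did not overlap at 5 weeks, beside 7.09% of all genes that were higher without overlap.

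**Figure D2:**
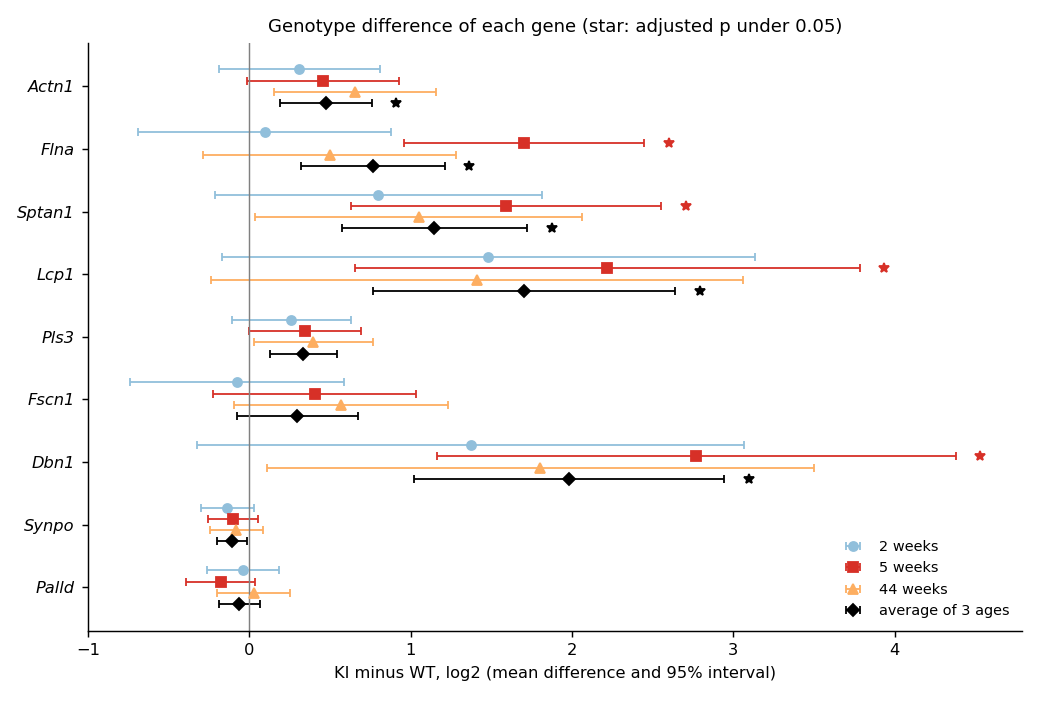
KI minus WT difference of each gene on the log2 scale (horizontal axis) at 2, 5 and 44 weeks and averaged over the ages, with 95% intervals and a star at a limma adjusted p under 0.05. The intervals of Dbn1, Lcp1, Flna and Sptan1 at 5 weeks lie wholly above 0, while those of Synpo and Palld reach 0 or lie close to it at every age.

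Dbn1, Lcp1 and Sptan1 followed each other from array to array, also among arrays of the same genotype and age. After the group means were taken out, r was 0.99 for Dbn1 with Sptan1, 0.97 for Lcp1 with Dbn1 and 0.97 for Lcp1 with Sptan1 over 25 arrays. All 3 were low on WT arrays 2, 7, 9 and 16 and on KI array 20, and all 3 had their highest value on WT array 15. The tubule marker mean moved with them: WT array 15 had the highest value of the 25 (9.87), and WT arrays 2 (8.12) and 7 (8.18) the lowest. The genes most like Dbn1 were Myo5b, Myh10 and Myo7a (r 0.99, 0.98 and 0.98), all myosin heavy chains, and those most like Sptan1 were Myh10, Cgnl1 and Cgn (r 0.98 each), the last pair being cingulin and its relative at tight junctions. For Flna they were Dgkz, Eno1b and Pfkl (r 0.94, 0.92 and 0.92), and for Actn1 Shroom2, Plec and Ssh2 (r 0.91, 0.90 and 0.90), an actin-binding, a linker and an actin-regulating protein. Actn1 itself was closest to Pls3 among the 9 genes within groups (r 0.90). These correlations describe the arrays, which share groups and amplification, and 11440 genes were compared.

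**Figure D3:**
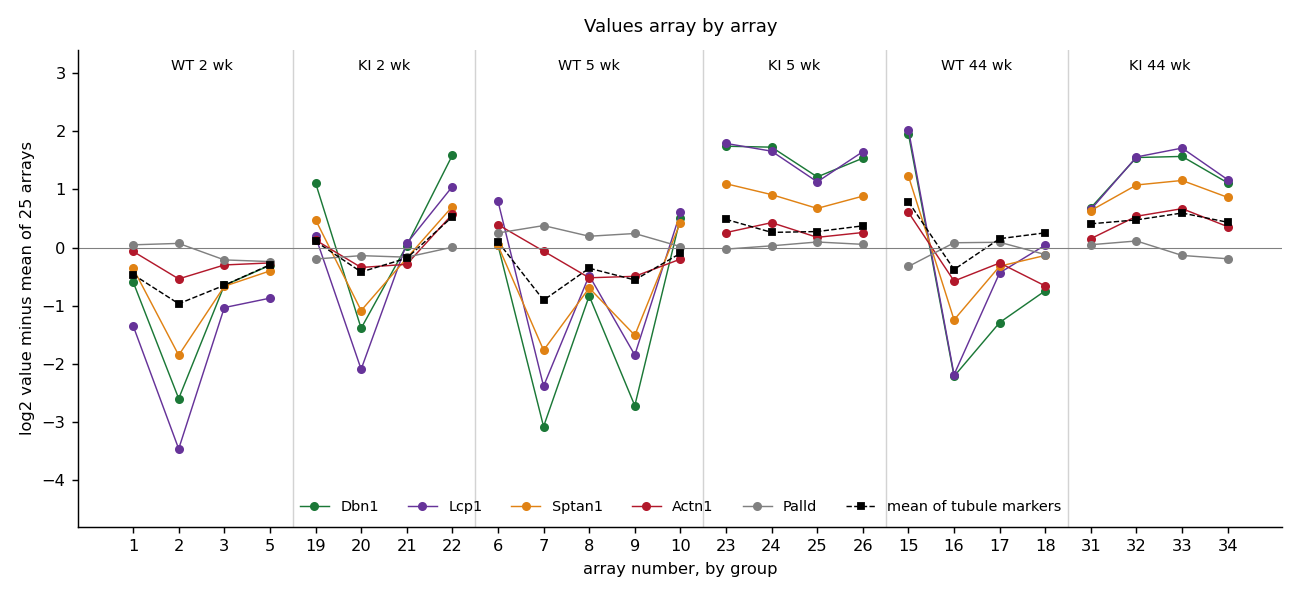
Log2 value minus the mean of 25 arrays (vertical axis) for 5 genes and for the mean of 23 tubule markers, array by array (horizontal axis, array numbers within the 6 groups). Lines join the arrays of a group for legibility only. Dbn1, Lcp1 and Sptan1 dip together on arrays 2, 7, 9, 16 and 20, and the tubule mean dips with them, while Palld does not.

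When the tubule mean entered the model as a covariate, none of the 9 genes passed at 5 weeks. The difference was 0.30 for Dbn1, 0.95 for Flna, 0.10 for Sptan1, -0.21 for Lcp1 and -0.09 for Actn1. Over all genes 33 were then higher and 3 lower, against 1710 and 928 without the covariate. With the smooth muscle and mesangial mean, which was 7.95 ± 0.49 (SD, n = 5) in WT and 8.70 ± 0.09 (SD, n = 4) in KI at 5 weeks, none passed and Flna stood at 0.58. With the leukocyte mean none passed and Dbn1 stood at 1.16. Over all genes 11 were higher and 1 lower with the smooth muscle and mesangial mean, and 106 and 7 with the leukocyte mean. At 5 weeks each of these 3 means was higher on every KI array than on any WT array. The lowest KI and highest WT values were 9.34 and 9.18 for tubule, 6.42 and 6.29 for leukocyte. For smooth muscle and mesangial they were 8.59 and 8.52. The genotypes shared no range of these means at that age, so the covariate differences there are extrapolated. No member passed in the average over ages under any of these 3 covariates. Of all genes 4 were higher there with the tubule mean, 6 with the leukocyte mean and 4 with the smooth muscle and mesangial mean, and none was lower. Without WT arrays 7, 8 and 9, the WT arrays lowest for Dbn1, Lcp1, Sptan1 and Flna, none of the 9 genes passed at 5 weeks. The differences were 1.28 for Dbn1, 0.86 for Lcp1, 0.66 for Sptan1, 0.57 for Flna and 0.18 for Actn1. Taking out the lowest WT arrays must shrink the differences of those genes. Over all genes tested 1 was higher and 0 lower in that fit. Fitted on the 9 arrays of 5 weeks alone the differences were the same and none passed, beside 394 of all genes higher and 106 lower. The limma adjusted p was 0.0533 for Dbn1, 0.056 for Sptan1, 0.0611 for Lcp1 and 0.0622 for Flna. Flna passed in all 9 fits that left out 1 array, Dbn1 in 7, Sptan1 in 6 and Lcp1 in 2; without WT array 7 or WT array 9 only Flna passed, and without KI array 23 only Flna and Dbn1. With array weights 7 members passed at 5 weeks, with Actn1, Fscn1 and Pls3 added, and of all genes 2867 were higher and 1954 lower. In the average the call was lost by all 5 genes when WT array 2, 16 or 17 or KI array 22 was left out. In those fits 123, 99, 120 and 83 of all genes were higher, against 478 with every array. The mean of 3 Y-linked genes ran from 2.89 to 8.39 over the arrays, and no array lay between 3.69 and 7.26. It was 7.49 ± 0.17 in WT and 4.38 ± 2.05 in KI at 2 weeks (SD, n = 4 each). At 5 weeks it was 5.34 ± 2.39 (SD, n = 5) and 6.75 ± 2.11 (SD, n = 4). At 44 weeks it was 4.36 ± 2.62 and 6.85 ± 2.56 (SD, n = 4 each). The sexes, read from these genes, were therefore not balanced between the genotypes. The arrays that crossed for Dbn1 and Lcp1 also stood apart from their groups in this mean. KI array 20 read 7.44, the other KI arrays of 2 weeks 3.14 to 3.52 and the WT arrays 7.26 or more. WT array 15 read 8.28 and the other WT arrays of 44 weeks 2.89 to 3.30. The KI arrays of 44 weeks read 7.93, 8.39, 8.06 and 3.02. With that mean as a covariate 3 members passed at 5 weeks, beside 1637 of all genes higher and 736 lower. Lcp1 then had an adjusted p of 0.0653 (limma). The part that other cell types, sex or single arrays have in the differences was not tested beyond these values.

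**Figure D4:**
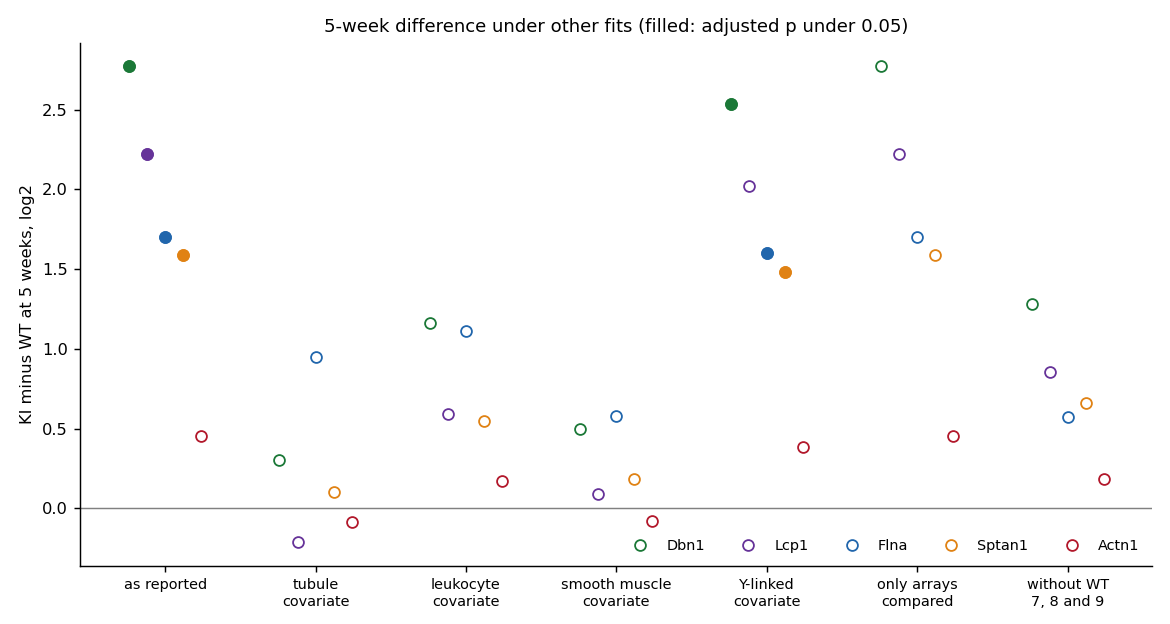
KI minus WT difference at 5 weeks on the log2 scale (vertical axis) of 5 genes as reported, with each covariate, on the arrays compared alone and without WT arrays 7, 8 and 9; filled points have a limma adjusted p under 0.05. Under the tubule covariate Dbn1 moves from 2.77 to 0.30.

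Pls3, T-plastin, is the widely expressed plastin. Its level was 11.46 ± 0.22 (SD, n = 5) in WT and 11.81 ± 0.11 (SD, n = 4) in KI at 5 weeks, a difference of 0.34 ± 0.17 (limma adjusted p 0.138). It was 10.98 ± 0.20 and 11.24 ± 0.41 at 2 weeks and 11.59 ± 0.33 and 11.98 ± 0.10 at 44 weeks (SD, n = 4 each). The average over ages, 0.33 ± 0.10 with an interval of 0.13 to 0.54, just missed the threshold (limma adjusted p 0.0535). Fscn1 encodes fascin, which bundles filaments in filopodia. It stood at 9.79 ± 0.86 (SD, n = 5) in WT and 10.20 ± 0.15 (SD, n = 4) in KI at 5 weeks, where the difference was 0.40 ± 0.30 (limma adjusted p 0.336). Its sign turned to -0.40 without WT arrays 7, 8 and 9, and its dimmest probe set gave -0.07.

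Synpo encodes synaptopodin, a partner of alpha-actinin in podocyte foot processes, and Palld palladin, a scaffold that binds alpha-actinin and bundles actin. Synpo was 12.61 ± 0.07 (SD, n = 5) in WT and 12.50 ± 0.05 (SD, n = 4) in KI at 5 weeks, and its differences were -0.14 ± 0.08, -0.10 ± 0.08 and -0.08 ± 0.08 at 2, 5 and 44 weeks. The average was -0.11 with an interval of -0.20 to -0.01 and did not pass (limma adjusted p 0.142). A difference of the size seen for Flna at 5 weeks lies far outside these intervals. The bright Palld probe set was 11.89 ± 0.13 (SD, n = 5) in WT and 11.71 ± 0.05 (SD, n = 4) in KI at 5 weeks, a difference of -0.18 ± 0.10 (limma adjusted p 0.21). The Palld probe sets disagreed. The second, nearly as bright, read 10.42, 11.08, 11.20, 10.97 and 11.30 in WT and 11.42, 11.36, 11.60 and 11.66 in KI at 5 weeks, with no overlap and a difference of 0.51 ± 0.16 (limma adjusted p 0.0409). The direction for Palld at 5 weeks therefore depended on the probe set, and no transcript-level annotation of these probe sets was used here.

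**Figure D5:**
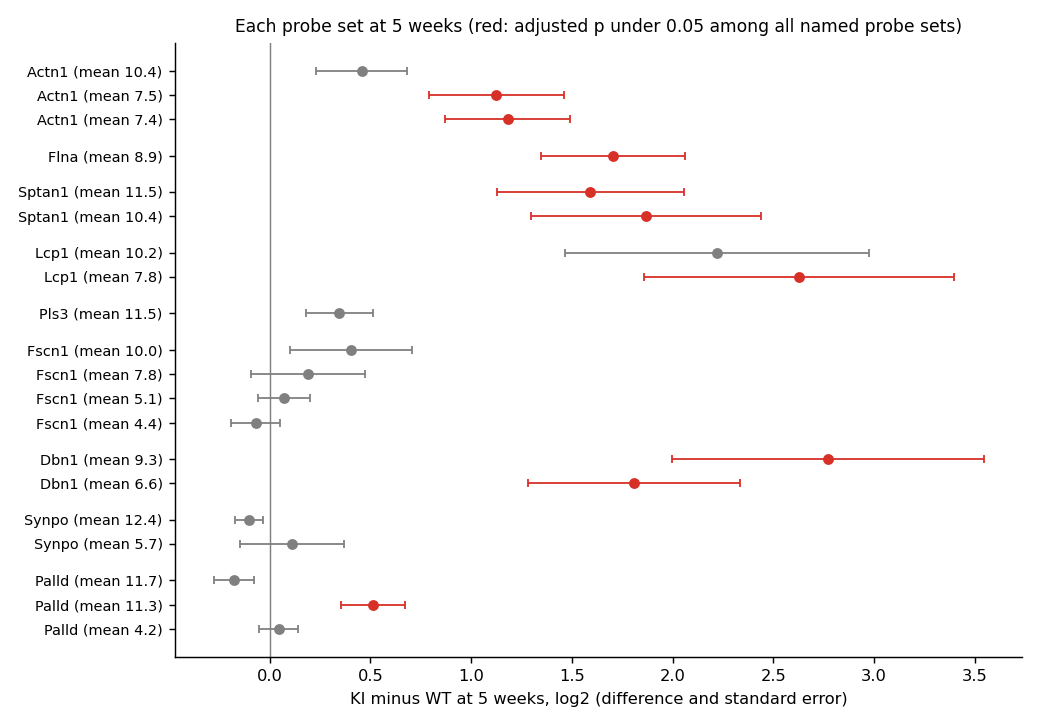
KI minus WT difference at 5 weeks on the log2 scale (horizontal axis, with standard error) for all 20 probe sets of the 9 genes, labelled with the gene and the mean log2 value; red marks a limma adjusted p under 0.05 over 28898 probe sets. The Palld probe sets lie on both sides of 0, and the dimmer Actn1 probe sets lie above the brightest.

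In WT 5 of the 9 genes changed between 2 and 5 weeks, beside 33.9% of all genes (12.2% higher and 21.7% lower). Flna fell by 2.10 and Fscn1 fell by 1.05 (SE 0.36 and 0.30, limma adjusted p 0.000213 and 0.0106). Pls3 rose by 0.48 ± 0.17, Palld by 0.30 ± 0.10 and Synpo by 0.29 ± 0.08, with limma adjusted p of 0.0306, 0.0282 and 0.00628. For Palld the direction depended on the probe set: the second, nearly as bright, was at -0.31 ± 0.16 (limma adjusted p 0.194 over all probe sets with 1 symbol). The dim second Synpo probe set was at 0.01 (limma adjusted p 0.988), the second Fscn1 probe set at -1.36 (limma adjusted p 0.00173) and the 2 dimmest Fscn1 probe sets at -0.07 and -0.26 (limma adjusted p 0.759 and 0.154). With the mean of a gene's probe sets neither Palld nor Synpo passed. The Palld call held in 5 and the Pls3 call in 6 of 9 fits that left out 1 array, Palld being lost without WT array 3, 5, 7 or 9 and Pls3 without WT array 2, 3 or 6, at values of 0.25 or more for Palld and 0.40 or more for Pls3. The WT arrays of 2 and 5 weeks did not overlap for Flna, Pls3 and Synpo, and 16.7% of all genes had no overlap. Without WT arrays 7, 8 and 9 only Flna passed, and so it did when only these 9 arrays were fitted. Of all genes 277 were higher and 714 lower in the first fit and 748 and 1495 in the second, against 1457 and 2596. Between 5 and 44 weeks none of the 9 genes passed in WT, beside 20.1% of all genes (limma), while 3 of the 9 and 4080 of the 11968 genes had an unadjusted p under 0.05. The smallest adjusted p was that of Palld, at 0.054 (limma) for a difference of -0.28, and its second probe set was at 0.45. The WT group of 5 weeks enters both these comparisons and the genotype comparison at that age. Fscn1 had its lowest group mean in WT at 44 weeks (9.00) and its highest in WT at 2 weeks (10.85). Pls3 was lowest in WT at 2 weeks (10.98) and highest in KI at 44 weeks (11.98).

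Direct paralogs of the 9 genes were mostly dim. Of 10 with a named probe set, 5 passed the filter: Actn2, Actn3, Flnc, Pls1 and Synpo2. Pls1, the plastin of microvilli, was 8.35 ± 1.10 (SD, n = 5) in WT and 9.95 ± 0.72 (SD, n = 4) in KI at 5 weeks and rose by 1.59 ± 0.54 (limma adjusted p 0.0398), and by 1.30 ± 0.32 in the average (limma adjusted p 0.0308). Actn3, a muscle alpha-actinin, was 4.83 ± 0.62 (SD, n = 5) and 5.62 ± 0.20 (SD, n = 4), close to the filter limit of 4.603, and was 0.79 ± 0.25 higher (limma adjusted p 0.0281). Actn2, at 0.07, Synpo2, at 0.56, and Flnc, at -0.38, did not pass (limma adjusted p 0.764, 0.253 and 0.0599). Fscn2, Fscn3, Synpo2l, Myot and Mypn were below the filter.

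Of 35 other crosslinkers and bundlers tested, which include these paralogs, 11 rose and 2 fell in KI at 5 weeks, with a median difference of 0.28 against 0.06 over all genes, of which 14.3% were higher and 7.75% lower. Coro1b, a coronin that remodels branched actin, rose by 0.72 ± 0.16, Lima1 (EPLIN, a bundler) by 1.76 ± 0.44, Vill, a relative of villin, by 1.95 ± 0.50 and Baiap2, a membrane-bending protein, by 0.85 ± 0.23, with limma adjusted p from 0.00467 to 0.014. In the average 7 rose and none fell, beside 3.99% and 1.33% of all genes, led by Lima1 at 1.31 ± 0.27, Plec (plectin) at 1.32 ± 0.28, Vil1 (villin) at 1.28 ± 0.30 and Svil (supervillin) at 1.39 ± 0.34 (limma adjusted p 0.0177 to 0.0291). Of 17 partners of alpha-actinin 6 rose and 1 fell at 5 weeks, with a median of 0.23. Zyx (zyxin, of focal adhesions) rose by 0.80 ± 0.15, Pdlim7 by 0.91 ± 0.22 and Csrp2 by 0.73 ± 0.21, while Pdlim5 fell by 0.77 (SE 0.18), with limma adjusted p from 0.00282 to 0.0182. In the average Zyx, at 0.40 ± 0.09, and Csrp2, at 0.44 ± 0.12, were the 2 partners that passed (limma adjusted p 0.0251 and 0.0427). Zyx and Pdlim7 had also fallen in WT from 2 to 5 weeks, with differences of -1.53 and -1.63 (limma adjusted p 2.97e-06 and 2.19e-05), and Pdlim5 had risen by 0.62 (limma adjusted p 0.0117); both comparisons use the WT arrays of 5 weeks.

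Of 14 other genes of the spectrin skeleton 3 rose and none fell at 5 weeks, with a median of 0.30, a count close to what the 14.3% of all genes that were higher would give. These were Sptb and Sptbn1, beta chains that pair with alpha spectrin, at 0.51 ± 0.14 and 0.81 ± 0.27, and Dmtn (dematin) at 0.94 ± 0.28 (limma adjusted p 0.0176, 0.0358 and 0.0229). In the average Sptbn1 passed at 0.65 ± 0.16 and the adaptor Ank3 at 0.93 (limma adjusted p 0.0294 and 0.0494). Over the 3 lists 23 genes were called at 5 weeks, and none without WT arrays 7, 8 and 9, 1 with the tubule covariate, 2 with the leukocyte covariate, 1 with the smooth muscle and mesangial covariate and 4 on the arrays of 5 weeks alone. Without WT array 7, WT array 9 or KI array 23 the number was 10, 9 and 12. Calls over all genes also fell in each of these fits. Cnn1, a crosslinker that was 0.60 higher at 5 weeks (limma adjusted p 0.0222), is also a smooth muscle marker. It counts in both lists and was part of the smooth muscle and mesangial covariate.

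Scaling did not change the direction of any of the 9 genotype differences at 5 weeks, although it changed the balance of all calls. Over all genes 1710 were higher and 928 lower in KI at 5 weeks as deposited. There were 1376 and 1383 after centring each array on its median, and 1427 and 1121 after quantile normalization. In the average there were 478 and 159 as deposited, 437 and 163 after centring and 365 and 226 after quantile normalization. Array medians ran from 4.82 to 4.99.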

How the data were processed

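RNA of the pulled-down ribosomes was amplified (NuGEN WT-Ovation, per the labels) and measured on 25 arrays. The deposited values are log2 signals per probe set, from 1.86 to 13.62. The log2 base was read from that range, and the authors' probe summary and normalization are not given in the sources used here. Symbols came from the platform annotation, updated by Entrez ID (99.3% found). Per gene the probe set with the highest mean was kept, and the dimmest 30% of genes (mean under 4.603) were left out, leaving 11968. Groups came from titles and source names, and all columns were used.

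Differences were tested with limma 3.58.1 (R 4.3.3) on 6 group means over all arrays (19 residual and 3.05 prior degrees of freedom), with Benjamini-Hochberg adjustment over all genes tested and a threshold of 0.05. An error after ± is limma's standard error unless SD is given. Precision is limited by the number of arrays. The fit was tested on simulated data with known changes.

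All 9 genes and their measured paralogs are named in the text. Of 3 lists (crosslinkers, alpha-actinin partners, spectrin skeleton) up to 4 genes with the smallest p at 5 weeks and in the average are named, and of most similar genes the 3 with the highest r, predicted genes excluded. The members and lists were chosen with earlier results of these data known. Actn4 was not analysed here.

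Alternatives were quantile normalization, median centring, no filter or a 50% filter, the mean of a gene's probe sets, every other probe set, array weights, a trended robust prior, a fit on the compared groups alone, covariates for tubule, leukocyte, smooth muscle and mesangial, or Y-linked means, and each array or WT arrays 7, 8 and 9 left out. Promoter windows came from RefSeq (GRCm38.p6).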

Additional observations from a re-analysis of the deposited data

Results flagged for a closer look

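Of 54 groups of 4 or 5 arrays (9 genes in 6 groups), 3 had an array whose gap to the nearest other array was too large a share of the group's range by Dixon's criterion, and chance alone flags about 1 in 20 groups. Flna stood at 8.93 on WT array 15 at 44 weeks, while the other 3 arrays of that group lay between 8.12 and 8.25. Synpo stood at 12.55 on KI array 31 at 44 weeks, above 12.32 to 12.36 on the others. Dbn1 stood at 6.74 on WT array 2 at 2 weeks, below 8.69 to 9.03 on the others.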

How the results depend on the processing

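No paired analysis was possible because the groups share no replicate numbers. Differences are log2. The calls among the 9 genes at 2 weeks (0) were the same in every fit tried. At 5 weeks, 4 passed as reported, 0 on the arrays compared alone, under the tubule, leukocyte or smooth muscle and mesangial covariate or without WT arrays 7, 8 and 9, 7 with array weights, and 1 to 5 with 1 array left out. In the average, 5 passed as reported, 0 under those 3 covariates or without WT arrays 7, 8 and 9, 3 with no filter, 8 with array weights, and 0 to 7 with 1 array left out. Of all 11968 genes 478 were higher and 159 lower there as reported, and 1816 and 1293 with array weights. With no filter 357 and 121 of 17097 were called, and without WT arrays 7, 8 and 9 4 and 0. With 1 array left out 83 to 1228 were higher. At 44 weeks 1 (Actn1) passed with array weights. For WT at 5 against 2 weeks 5 passed, 3 with the mean of probe sets, 1 on the arrays compared alone or without WT arrays 7, 8 and 9, and 3 to 5 with 1 array left out. For WT at 44 against 5 weeks 0 passed, 3 after centring, with array weights, under the tubule or under the smooth muscle covariate, 1 with quantile normalization, a 50% filter, the mean of probe sets, the robust prior, the leukocyte covariate or without WT arrays 7, 8 and 9, and 0 to 2 with 1 array left out. Either change of the genotype effect between ages gave 0, 1 (Flna) with array weights, and 0 to 1 with 1 array left out. In the comparisons with 44 weeks and the changes of the genotype effect, calls over all genes were counted only as reported. The 23 calls of the pathway lists at 5 weeks became 4 on the arrays compared alone, 1, 2 and 1 under the tubule, leukocyte and smooth muscle covariates, 0 without WT arrays 7, 8 and 9, and 9 to 25 with 1 array left out. At 5 weeks the calls over all genes also fell with each covariate, on the arrays compared alone and without WT arrays 7, 8 and 9. They rose with array weights. The cause of these changes was not tested. Without WT arrays 7, 8 and 9 these signs turned: at 5 weeks Fscn1 -0.40, in WT at 5 against 2 weeks Dbn1 1.31 and in WT at 44 against 5 weeks Flna -0.30, Lcp1 -0.84, Pls3 -0.063, Dbn1 -0.85, Sptan1 -0.35. With the Y-linked covariate these signs turned: at 2 weeks Fscn1 0.20, in WT at 5 against 2 weeks Dbn1 0.18 and in WT at 44 against 5 weeks Actn1 0.0025. With array weights these signs turned: at 2 weeks Fscn1 0.053, Palld 0.043 and in WT at 5 against 2 weeks Actn1 -0.056, Sptan1 -0.32. With the leukocyte covariate these signs turned: at 2 weeks Flna -0.17, Palld 0.0017, at 5 weeks Fscn1 -0.050 and in WT at 44 against 5 weeks Lcp1 -1.46, Pls3 -0.17, Dbn1 -1.32, Sptan1 -0.69. With the mean of all probe sets these signs turned: at 5 weeks Synpo 0.0047, Palld 0.13, at 44 weeks Palld -0.027, in the average Palld 0.0035, in WT at 5 against 2 weeks Actn1 -0.043 and in WT at 44 against 5 weeks Actn1 0.38, Palld 0.011. With the smooth muscle and mesangial covariate these signs turned: at 2 weeks Flna -0.042, at 5 weeks Actn1 -0.078, Fscn1 -0.52, Pls3 -0.025, in the average Fscn1 -0.18, Palld 0.015, in WT at 5 against 2 weeks Dbn1 2.12 and in WT at 44 against 5 weeks Actn1 0.011. With the tubule covariate these signs turned: at 2 weeks Actn1 -0.15, Flna -0.54, Lcp1 -0.58, Pls3 -0.13, Dbn1 -0.71, Palld 0.077, Sptan1 -0.46, at 5 weeks Actn1 -0.088, Fscn1 -0.22, Lcp1 -0.21, Pls3 -0.11, in the average Fscn1 -0.16, Lcp1 -0.10, Pls3 -0.0060, Palld 0.039, in WT at 5 against 2 weeks Actn1 -0.061, Sptan1 -0.36 and in WT at 44 against 5 weeks Lcp1 -1.41, Pls3 -0.24, Dbn1 -1.32, Sptan1 -0.60. On another probe set of the same gene these signs turned: at 5 weeks Fscn1 -0.070, Palld 0.51, Palld 0.046, Synpo 0.11, at 44 weeks Fscn1 -0.37, Palld -0.0029, Palld -0.11, Synpo 0.036, in the average Fscn1 -0.057, Fscn1 -0.13, Palld 0.100, in WT at 5 against 2 weeks Actn1 -0.093, Actn1 -0.15, Dbn1 0.17, Palld -0.31 and in WT at 44 against 5 weeks Actn1 0.61, Actn1 0.57, Palld 0.45. With 1 array left out in turn the sign also turned for some arrays, the values running at 2 weeks Flna from -0.020 to 0.26, Fscn1 from -0.19 to 0.017, Palld from -0.093 to 0.012, at 44 weeks Palld from -0.059 to 0.079, in WT at 5 against 2 weeks Actn1 from -0.027 to 0.20, Dbn1 from -0.70 to 0.29, Sptan1 from -0.23 to 0.39 and in WT at 44 against 5 weeks Actn1 from -0.32 to 0.097, Lcp1 from -0.20 to 1.21, Pls3 from -0.039 to 0.21, Dbn1 from -0.20 to 1.19. Signal over background cannot be judged from these values, and at 2 and 44 weeks the median standard error over all genes was 0.18, which limits what 4 arrays can show. Among the 9 genes it ran from 0.08 (Synpo) to 0.82 (Dbn1), with 0.80 for Lcp1, 0.49 for Sptan1 and 0.38 for Flna. The 95% interval of Lcp1 at 44 weeks ran from -0.24 to 3.06.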
